A study of Rattus norvegicus with 6 samples.

Results

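The PERK-ATF4 branch of the integrated stress response was examined in rat fibroblast-like synoviocytes of rheumatoid arthritis (RA-FLS), the cells that line the joint and form the invasive tissue of the disease. Its 10 genes were taken by symbol from the deposited count table of 34156 genes. They are Eif2ak3, Atf4, Atf3, Ddit3, Ppp1r15a, Trib3, Asns, Chac1, Sesn2 and Gdf15, and all 10 were among the 13614 genes that passed the filter on low counts and were tested. RNA-seq was performed on 3 libraries of RA-FLS given TNF-α at 10 ng/mL (TNF-α group) and on 3 libraries given the same TNF-α together with emodin (EMO), an anthraquinone of rhubarb, at 80 μmol/L (TNF-α+EMO group). Both groups are labelled WT, rheumatoid arthritis and day 5, whereas the methods describe a shorter incubation. The cells were bought as rat RA-FLS from a commercial source, so each value describes that source of cells. No library without TNF-α and none with EMO alone was analysed here, so every difference is that of EMO added to TNF-α. The methods call the 3 libraries of a group biological replicates, but neither they nor the labels say whether these came from separate animals or cultures, and p-values measure the spread between these libraries.

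The integrated stress response begins when a kinase phosphorylates the translation initiation factor eIF2, which lowers protein synthesis in general while allowing the mRNA of the transcription factor ATF4 to be translated. PERK, encoded by Eif2ak3, is the kinase that senses unfolded protein in the endoplasmic reticulum, and ATF4 then drives genes for amino acid supply, redox balance and further transcription factors, among them CHOP, encoded by Ddit3. Phosphorylation of eIF2 and the amount of ATF4 protein are controlled after transcription and are not measured by RNA-seq, so the values below are mRNA levels.

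Promoter sequences are shown for Chac1, Trib3 and Ppp1r15a because these were the members whose promoter window held a motif bound by ATF4 or its relatives. Windows from RefSeq on GRCr8, each with 250 bases before and 50 after a start, were matched to 9 of the 10 genes, with 10 windows because Gdf15 had 2. Atf3 had no entry. The windows were searched on both strands for TGATGNAA, the core of the C/EBP-ATF composite site, and for TGACGTCA, the cAMP response element, which do not overlap in any window below. The bases before the start are printed 5′ to 3′ on the gene's strand, with the match in capitals.
Chac1: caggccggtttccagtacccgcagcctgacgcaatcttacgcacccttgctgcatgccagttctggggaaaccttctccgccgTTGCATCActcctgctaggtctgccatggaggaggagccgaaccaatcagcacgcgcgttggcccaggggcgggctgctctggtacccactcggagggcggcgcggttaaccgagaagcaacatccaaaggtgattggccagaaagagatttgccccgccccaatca
Trib3: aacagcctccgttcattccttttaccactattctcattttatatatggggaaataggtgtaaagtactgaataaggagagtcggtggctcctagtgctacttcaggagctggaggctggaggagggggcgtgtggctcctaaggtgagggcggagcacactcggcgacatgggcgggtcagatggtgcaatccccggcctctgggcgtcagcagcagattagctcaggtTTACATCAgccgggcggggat
Ppp1r15a: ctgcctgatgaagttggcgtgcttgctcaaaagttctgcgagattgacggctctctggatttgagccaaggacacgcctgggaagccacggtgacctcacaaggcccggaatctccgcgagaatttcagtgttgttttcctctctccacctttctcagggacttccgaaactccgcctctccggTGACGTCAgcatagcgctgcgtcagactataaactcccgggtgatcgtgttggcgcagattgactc

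The Chac1 stretch is chr3:126795881-126796130 on the plus strand, and its composite core lay on the opposite strand at positions -167 to -160 from the start. In Trib3, chr3:161275534-161275783 on the minus strand, the composite core was also on the opposite strand, at positions -21 to -14. In Ppp1r15a, chr1:105139597-105139846 on the minus strand, the cAMP response element was at positions -66 to -59. The composite core was found in 2 of the 10 windows of the members and in 1332 of 33469 windows of all genes (3.98%). The cAMP response element was found in 1 of the 10 windows and in 612 of all windows (1.83%). These matches describe letters in a window and are not binding sites, and windows without a match only lack these letters.

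The libraries held 16813322 to 17794455 counts, and 13342 to 13365 genes reached 10 counts in the TNF-α group against 12566 to 12662 in the TNF-α+EMO group. The groups differed widely: by edgeR's quasi-likelihood test at a Benjamini-Hochberg adjusted p under 0.05, 5366 of 13614 genes (39.4%) were higher and 5642 (41.4%) lower with EMO. The smallest p that exact permutation of 3 and 3 libraries allows for 1 gene is 0.1, and the adjusted p-values rest on the spread that edgeR shares across genes. Of 13 fibroblast markers in the table, the summed normalised count was 208948 to 229585 in the TNF-α group and 35236 to 37902 in the TNF-α+EMO group, where Thy1, Prg4, Pdpn, Fap and Lum were at 0 counts in every library. Of the 10 that were tested, 9 were lower and 1, Dcn, was higher, and their median log2 fold change was -6.39. Dcn passed the filter only through the TNF-α+EMO libraries, and Fap and Lum only through the TNF-α libraries, which fixed their directions. Most of the TNF-α+EMO sum was Vim, at 61464 ± 1350 with TNF-α and 32387 ± 1299 with EMO added, which other mesenchymal cells also express. The more specific Col3a1 fell from 11635 ± 269 to 26.7 ± 6.88, Pdgfra from 20844 ± 260 to 216 ± 33.9 and Cdh11 from 2968 ± 113 to 40.3 ± 6.69 normalised counts. Col1a1 fell from 111181 ± 9932 to 3709 ± 46.1 and so was still well above 0. The TNF-α+EMO libraries thus held few or no reads of several defining markers of the cell type on their label. The identity of the cells was not tested in either group. Pdpn was at or under 3 counts in the TNF-α group too, and Thy1 and Prg4 did not exceed 7 counts there. Of 18 markers of blood, endothelial, muscle and epithelial cells, the sum was 12074 to 12913 in the TNF-α group and 2767 to 3186 in the TNF-α+EMO group. Most of that sum was the keratin gene Krt8, at 10389 ± 432 and 2140 ± 168 (SD, n = 3), and Cd163, Kdr and Epcam were at 0 counts in every library. Of the 6 that were tested, 4 were lower, 1 was higher and 1 did not pass the threshold. The higher one was the macrophage marker Cd68, from 153 ± 14.7 to 256 ± 11.3. Cd14 went from 1093 ± 57.8 to 510 ± 41.2, and Acta2 from 458 ± 24.4 to 0.344 ± 0.595. Acta2 passed the filter only through the TNF-α libraries. These marker levels moved together with the stress genes described here, and their part in the result was not tested. In bulk RNA, fewer cells of a type and less RNA per cell cannot be told apart.

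All 10 genes were higher with EMO at an adjusted p under 0.05, against 39.4% of all genes tested, and none was lower. Gdf15 passed the filter on low counts only through the TNF-α+EMO libraries, so it could not have been counted as lower. Its part in the counts, the separation and the median of this paragraph is therefore no support. All 10 also had a log2 fold change over 1, against 19.5% of all genes. For each of the 10, the 3 TNF-α+EMO libraries lay above the 3 TNF-α libraries, which held for 40.3% of all genes tested. The median log2 fold change of the 10 was 4.69, beside -0.01 over all genes tested. The 10 were chosen with earlier results of these data known, so these contrasts with all genes are descriptions and not independent support. Together the 10 genes took 0.0626% to 0.0644% of the counts of a TNF-α library and 0.692% to 0.702% of those of a TNF-α+EMO library. Two-sided tests were used throughout, and normalised counts are counts scaled to a common library size.

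**Figure D1:**
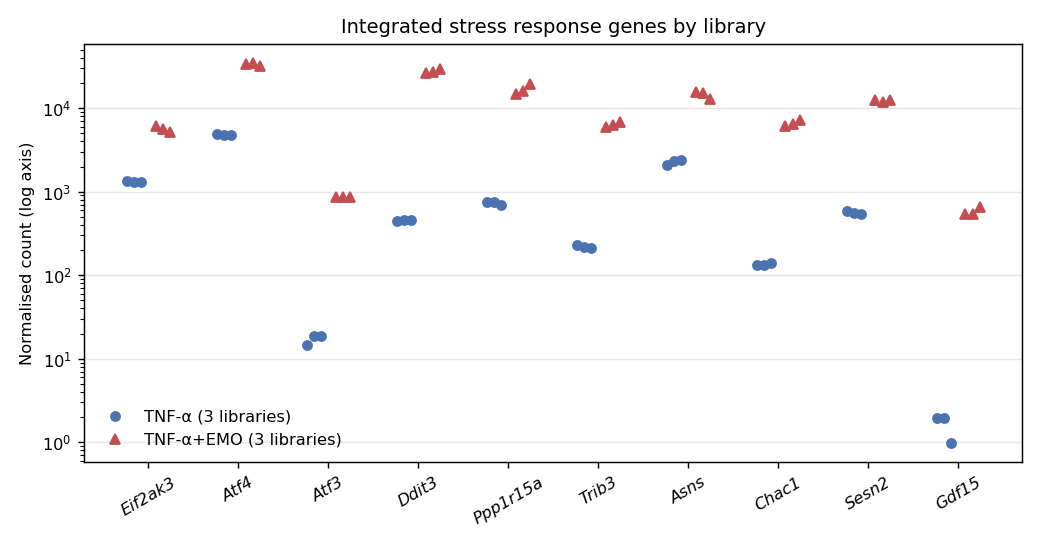
Normalised counts (log axis) of the 10 PERK-ATF4 genes in the 3 TNF-α libraries (circles) and the 3 TNF-α+EMO libraries (triangles), 1 point per library. For all 10 genes the TNF-α+EMO libraries sit above the TNF-α libraries, and Gdf15 spans the widest distance, from 0.974 to 655 normalised counts.

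Eif2ak3 (ENSRNOG00000006069, chromosome 4, 98648545 to 98709694, plus strand, Rnor_6.0 as for all deposited coordinates), the sensor of the branch, had 1353, 1318 and 1297 normalised counts with TNF-α and 6091, 5633 and 5136 with EMO added. The TNF-α libraries were close to each other and far below the lowest TNF-α+EMO library. The mean rose 4.25-fold, from 1323 ± 28.2 to 5620 ± 477 (SD, n = 3 each), which is 2.09 ± 0.07 (SE) on the log2 scale (edgeR adjusted p = 5.3e-10). This was the smallest increase among the 10 genes.

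Atf4 (ENSRNOG00000017801, chromosome 7, 121480723 to 121482772, plus strand), the central transcription factor, had 4855, 4816 and 4787 normalised counts with TNF-α and 34028, 34740 and 32257 with EMO added. It was the most even member in the TNF-α group, with a coefficient of variation of 0.71%, although 3 libraries estimate such a coefficient only loosely. Its mean rose 6.99-fold, from 4820 ± 34.2 to 33675 ± 1279, which is 2.80 ± 0.06 (SE) on the log2 scale (edgeR adjusted p = 1.1e-11). These are levels of Atf4 mRNA, and its translation was not measured.

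Ddit3 (ENSRNOG00000006789, chromosome 7, 70580198 to 70585084, plus strand) encodes CHOP, the factor linked to cell death under lasting stress of the endoplasmic reticulum. It had 444, 455 and 453 normalised counts with TNF-α and 26021, 27255 and 29602 with EMO added. The 61.3-fold increase, from 451 ± 5.82 to 27626 ± 1819, was 5.94 ± 0.08 (SE) on the log2 scale (edgeR adjusted p = 1.1e-12). The end of Ddit3 shares 72 bases with Mars1, a gene for methionyl-tRNA synthetase on the opposite strand, and the strand setting of the counting is not given in the sources used here, so reads from these bases cannot be assigned to either gene. Mars1 had 1989 to 2211 normalised counts with TNF-α and 9077 to 9795 with EMO added, a log2 fold change of 2.17 ± 0.07 (SE). The part of the shared bases in the Ddit3 counts was not tested.

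Atf3 (ENSRNOG00000003745, chromosome 13, 109817728 to 109849632, minus strand), a stress-induced partner and repressor within the same factor family, was near the lower end of the measured range with TNF-α alone. It had 14.7, 18.5 and 18.5 normalised counts there and 859, 855 and 863 with EMO added. The 3 TNF-α+EMO values were nearly equal, with a coefficient of variation of 0.426%, the lowest of the 10 genes. So close an agreement of 3 values is a description and was not tested as a trait of the gene. The mean rose 49.8-fold, from 17.3 ± 2.20 to 859 ± 3.66, which is 5.63 ± 0.12 (SE) on the log2 scale (edgeR adjusted p = 1.7e-11).

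The feedback genes rose as well. Ppp1r15a (ENSRNOG00000020938, chromosome 1, 101511901 to 101514974, minus strand), whose promoter stretch with the cAMP response element is printed above, encodes GADD34, the inducible partner of the phosphatase that removes the phosphate from eIF2. It had 750, 748 and 687 normalised counts with TNF-α and 14729, 16005 and 19332 with EMO added. These were the most uneven TNF-α+EMO values of the 10 genes, with a coefficient of variation of 14.2%, yet the groups lay far apart. The 22.9-fold increase, from 728 ± 36.0 to 16689 ± 2377, was 4.52 ± 0.11 (SE) on the log2 scale (edgeR adjusted p = 6.1e-11). Trib3 (ENSRNOG00000007319, chromosome 3, 147813473 to 147819571, minus strand), a pseudokinase that binds ATF4 and CHOP and restrains them, had 232, 217 and 212 normalised counts with TNF-α. With EMO added it had 5937, 6368 and 6889, so no library of one group came near the other. Its mean rose 29.0-fold, from 221 ± 10.4 to 6398 ± 477, which is 4.86 ± 0.08 (SE) on the log2 scale (edgeR adjusted p = 4.6e-12).

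Among the effector genes, Asns (ENSRNOG00000007546, chromosome 4, 33743364 to 33761163, minus strand), which encodes asparagine synthetase, had 2063, 2301 and 2414 normalised counts with TNF-α and 15788, 14990 and 12716 with EMO added. Its mean rose 6.42-fold, from 2259 ± 179 to 14498 ± 1594, which is 2.68 ± 0.09 (SE) on the log2 scale (edgeR adjusted p = 5.9e-10), close in size to that of Atf4. Chac1 (ENSRNOG00000014387, chromosome 3, 111160205 to 111163425, plus strand), an enzyme that breaks down glutathione, had 133, 133 and 140 normalised counts with TNF-α and 6085, 6416 and 7168 with EMO added. The TNF-α libraries were level and low, and the mean rose 48.4-fold, from 135 ± 4.22 to 6556 ± 555, which is 5.60 ± 0.09 (SE) on the log2 scale (edgeR adjusted p = 3.3e-12).

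Sesn2 (ENSRNOG00000042785, chromosome 5, 150684133 to 150704117, minus strand) encodes sestrin 2, a leucine sensor that restrains mTORC1. It had 585, 558 and 543 normalised counts with TNF-α and 12565, 12010 and 12621 with EMO added, so both groups were even. The mean rose 22.1-fold, from 562 ± 21.3 to 12399 ± 338, which is 4.46 ± 0.07 (SE) on the log2 scale (edgeR adjusted p = 1.9e-12). Gdf15 (ENSRNOG00000019661, chromosome 16, 20555395 to 20557978, plus strand), a secreted stress cytokine, was almost absent with TNF-α alone, at 2, 2 and 1 raw counts, against 521, 532 and 643 raw counts with EMO added. The ratio of the summed counts, scaled for library size, was 356, with a 95% exact interval of 152 to 1097 that covers counting error only. Its fitted log2 fold change, 8.37 ± 0.22 (SE, edgeR adjusted p = 7.1e-11), depends on how a few counts are smoothed and is not a bound.

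**Figure D2:**
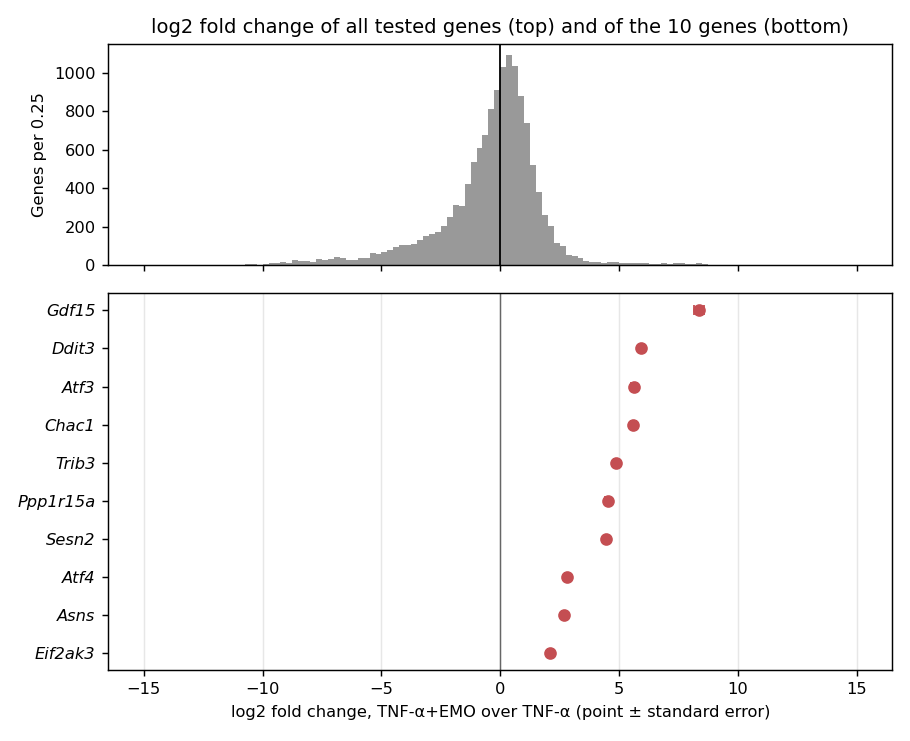
Top, number of the 13614 tested genes per interval of log2 fold change (TNF-α+EMO over TNF-α), with the median of -0.01 as a vertical line. Bottom, log2 fold change of each of the 10 genes with its standard error as a bar, from 2.09 for Eif2ak3 to 8.37 for Gdf15.

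Ordered by log2 fold change among all 13614 genes tested, Gdf15 stood at rank 33, Ddit3 at rank 121, Atf3 at rank 131 and Chac1 at rank 135. Trib3, Ppp1r15a and Sesn2 were at ranks 169, 192 and 198. The sensor and the central factor stood lower in that order, with Atf4 at rank 393, Asns at rank 427 and Eif2ak3 at rank 748.

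The order of the members by level was then compared as counts per kilobase of deposited gene length and per 1000000 counts (CPM per kb), the scale on which genes of unequal length can be set side by side. With TNF-α alone, Atf4 had the highest level, 145 ± 1.03, followed by Asns at 59.1 ± 4.69 and Ddit3 at 28.4 ± 0.366. Ppp1r15a at 17.5 ± 0.867 and Eif2ak3 at 17.1 ± 0.366 overlapped. Sesn2 at 8.74 ± 0.331, Trib3 at 6.64 ± 0.314 and Chac1 at 5.02 ± 0.156 came next, and Atf3 at 0.345 ± 0.0440 and Gdf15 at 0.104 ± 0.0362 were lowest. Other neighbours in this order did not overlap. In the order of all genes tested by this level, Atf4 was at rank 538 of 13614 and Ddit3 at rank 3428.

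With EMO added, the order was headed by Ddit3 at 1738 ± 114 CPM per kb, above Atf4 at 1010 ± 38.4, and the 3 libraries of each did not overlap. Ppp1r15a at 401 ± 57.2 and Asns at 379 ± 41.7 overlapped, as did Sesn2 at 193 ± 5.25 and Trib3 at 192 ± 14.3. Chac1 lay between these pairs at 243 ± 20.6. Eif2ak3 at 72.8 ± 6.19 was below all of these, and Gdf15 at 36.9 ± 4.21 and Atf3 at 17.2 ± 0.0732 remained the lowest pair, in exchanged order. Among all genes tested, Ddit3 moved from rank 3428 to rank 42 by this level, Chac1 from rank 9267 to rank 420 and Atf4 from rank 538 to rank 90. Atf3 was still at rank 4988, despite its 49.8-fold increase.

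**Figure D3:**
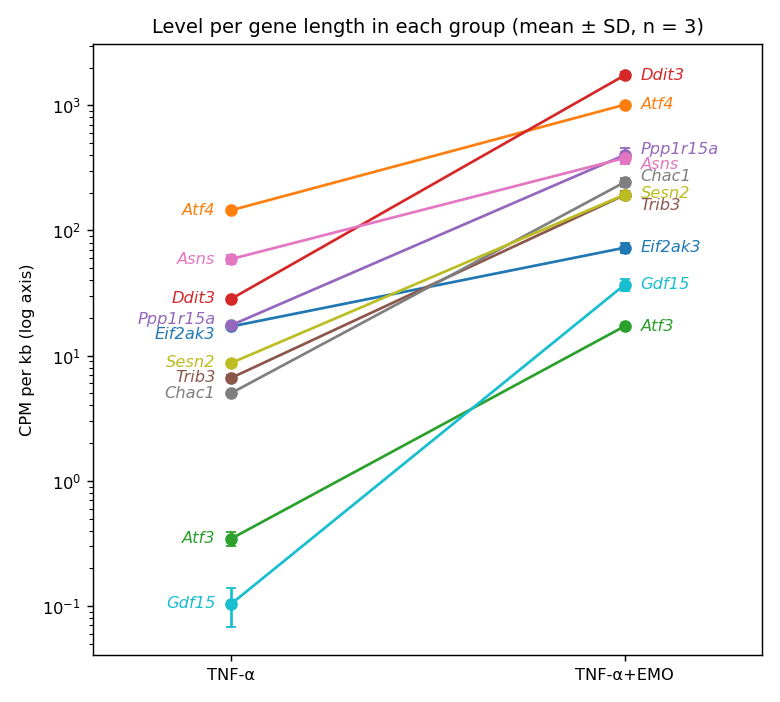
Level of each gene in CPM per kb (log axis) in the TNF-α and TNF-α+EMO groups, as the mean with SD bars over 3 libraries, joined by a line per gene. Ddit3 climbs from the third place, 28.4, to the first, 1738, and passes Atf4, which climbs from 145 to 1010.

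The same levels were expressed relative to Atf4 within each library, as a description without a test. Per unit of Atf4, Ddit3 went from 0.196 ± 0.00372 with TNF-α to 1.72 ± 0.175 with EMO added, where the libraries had 1.60, 1.65 and 1.92. Asns kept about the same proportion, 0.409 ± 0.0352 and 0.375 ± 0.0304, and its libraries overlapped between the groups. Eif2ak3 was the member whose proportion to Atf4 was lower in all TNF-α+EMO libraries, at 0.119 ± 0.00169 and 0.0720 ± 0.00461. For the 7 members other than Atf4, Asns and Eif2ak3, Ddit3 included, the proportion was higher in all TNF-α+EMO libraries. It went from 0.0348 to 0.241 for Chac1, from 0.121 to 0.399 for Ppp1r15a and from 0.0459 to 0.191 for Trib3, whereas Sesn2 went from 0.0605 to 0.191.

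The 3 TNF-α+EMO libraries did not deviate alike in every member. Replicate 3 was the highest for Ppp1r15a, Gdf15, Chac1, Trib3 and Ddit3, by 0.10 to 0.22 on the log2 scale above the group mean. It was the lowest for Asns, Eif2ak3 and Atf4, at -0.18, -0.13 and -0.06, and Atf3 and Sesn2 stayed within 0.05 of their mean in every library. Gene length moved with this spread across the whole table. Over the shortest 4539 genes tested, up to 1672 bases, the median log2 ratio of TNF-α+EMO replicate 3 to replicate 1 was 0.14, and over the longest 4534, from 3024 bases, it was -0.11. The corresponding ratios in the TNF-α group were 0.00 and -0.03. Among the members, Gdf15 and Ddit3 are the shortest, with 912 and 925 bases, and Eif2ak3 is the longest, with 4491 bases. Not all members followed their length. Ppp1r15a and Asns, which replicate 3 moved in opposite directions, have 2420 and 2226 bases, and Sesn2, with 3739 bases, was at 0.03 in that replicate. The part of gene length in these deviations was not tested, and they are small beside every difference between the groups.

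**Figure D4:**
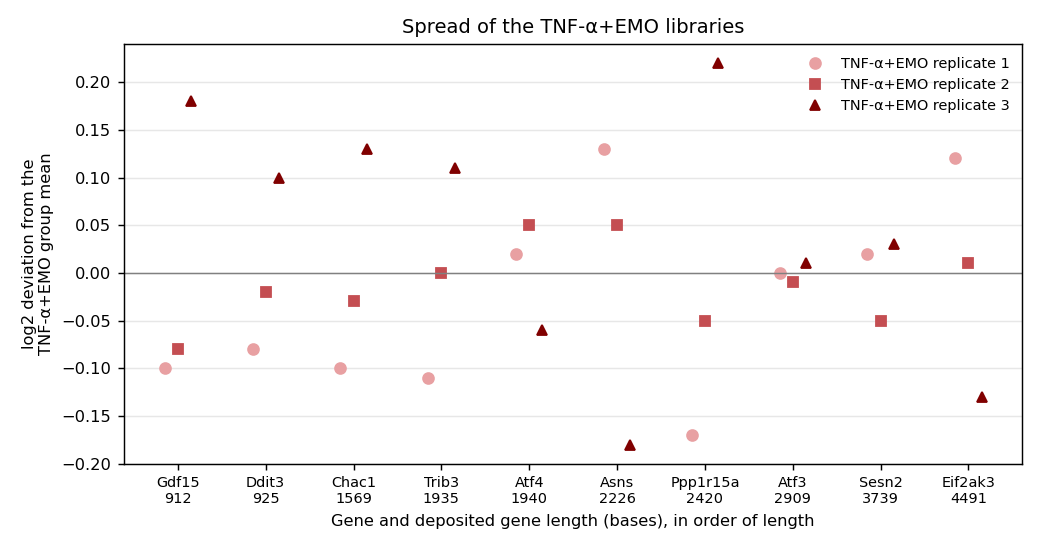
Deviation of each TNF-α+EMO library from the mean of its group (log2 scale) for the 10 genes, placed from the shortest (Gdf15, 912 bases) to the longest (Eif2ak3, 4491 bases), with 1 symbol per replicate. Replicate 3 (dark triangles) is highest for Ppp1r15a, at 0.22, and lowest for Asns, at -0.18.

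PERK is one of 4 kinases that phosphorylate eIF2, and none of the other 3 was higher with EMO at the threshold. Eif2ak1, encoding the heme-regulated kinase HRI, had 1934 ± 73.6 normalised counts with TNF-α and 1904 ± 130 with EMO added, which is -0.02 ± 0.07 (SE) on the log2 scale (edgeR adjusted p = 0.77). Eif2ak2, encoding PKR, the kinase activated by double-stranded RNA, fell from 1034 ± 23.0 to 766 ± 57.0, which is -0.43 ± 0.08 (SE) on the log2 scale (adjusted p = 0.00036). Eif2ak4, encoding GCN2, the kinase that senses amino acid shortage, fell from 983 ± 63.3 to 346 ± 22.7, which is -1.51 ± 0.09 (SE) on the log2 scale (adjusted p = 3.6e-08).

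Around these kinases, 20 genes of the eIF2 machinery were tested. With EMO, 15 were higher, 4 lower and 1 not past the threshold, beside 39.4% higher and 41.4% lower among all genes tested. Their median log2 fold change was 0.67 beside -0.01 over all genes. Among the 20, 7 of the higher and 2 of the lower exceeded a 2-fold change, beside 19.5% and 27.8% of all genes tested. The call of Ppp1ca, among the 15 higher genes, was lost with library totals as the only scaling and without TNF-α replicate 2. All 3 subunits of eIF2 were higher, by 0.96 to 1.79 on the log2 scale, and so were all 5 subunits of its exchange factor eIF2B, by 0.44 to 1.90. The largest increases were those of Eif2b3 (log2 fold change 1.90, standard error 0.08), Eif2s2 (1.79, standard error 0.07) and Eif2b1 (1.78, standard error 0.06). Besides Eif2ak4, the genes that fell most were Ppp1cc, a catalytic subunit of the eIF2 phosphatase, at -1.29 (standard error 0.06), and Gcn1, the activator of GCN2, at -0.68 (standard error 0.06). Impact, an inhibitor of GCN2, rose by 1.54, and Dnajc3, which encodes the PERK inhibitor P58IPK, rose by 1.56 on the log2 scale.

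Further genes that ATF4 is known to activate were examined, of which 29 of 32 listed were tested. In total 23 were higher, 3 lower and 3 not past the threshold, beside 39.4% higher and 41.4% lower among all genes tested. The median log2 fold change was 2.03. A 2-fold increase was exceeded by 20 of the 29 and a 2-fold decrease by none, beside 19.5% and 27.8% of all genes. Stc2, encoding the secreted glycoprotein stanniocalcin 2, rose most, 58.1-fold from 29.3 ± 3.31 to 1703 ± 302 normalised counts (log2 fold change 5.85 ± 0.17 (SE), edgeR adjusted p = 1.5e-10). Fgf21, a secreted metabolic hormone, had 1 raw count in each TNF-α library and 18, 29 and 27 with EMO added. The ratio of its summed counts was 25.9, with a 95% exact interval of 8.51 to 128. Aldh1l2, a mitochondrial folate enzyme, rose from 8.79 ± 3.50 to 101 ± 5.39 normalised counts, which is 3.50 ± 0.30 (SE) on the log2 scale (adjusted p = 8.8e-07). Fgf21 and Aldh1l2 passed the filter only through the TNF-α+EMO libraries, so neither could have been counted as lower.

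By function, the ATF4 targets did not all move one way. All 7 amino acid transporters tested were higher, by 0.18 to 2.22 on the log2 scale, and so were all 3 one-carbon enzymes, by 1.89 to 3.50. Among all genes tested, 39.4% were higher and 41.4% lower. Aldh1l2, among these enzymes, passed the filter only through the TNF-α+EMO libraries, so it could not have been counted as lower. The smallest of the transporter changes, that of Slc1a5, lost its call with library totals as the only scaling and without TNF-α replicate 2 or TNF-α replicate 3, and ranged from 0.07 to 0.20 over 12 alternatives. In serine synthesis, Psph rose by 2.43 on the log2 scale (standard error 0.12), Phgdh was at 0.11 (standard error 0.08, adjusted p = 0.23 by edgeR) and Psat1 fell by 0.57 (standard error 0.07, adjusted p = 1.9e-05). In proline synthesis, Pycr1 fell by 0.52 (standard error 0.14, adjusted p = 0.0051). Aldh18a1 had raw counts of 455, 53 and 101 in the TNF-α+EMO libraries, so that replicate 1 stood far above the others and the gene did not pass the threshold (log2 fold change 2.19 ± 0.99 (SE), adjusted p = 0.10). Without that library, its log2 fold change was 0.78, and without TNF-α+EMO replicate 2 or with DESeq2 it passed the threshold. The gene that fell most was Cebpb, encoding a partner of ATF4 at composite sites, from 4404 ± 798 to 2692 ± 217 normalised counts (log2 fold change -0.71 ± 0.12 (SE), adjusted p = 0.00055). The composite core was found in 7 of 27 promoter windows of this list (25.9%), beside 3.98% of the windows of all genes. The 7 windows were those of Fgf21, Nupr1, Jdp2, Pycr1, Slc7a1, Slc1a4 and Herpud1. Of these genes, Pycr1 fell and Jdp2 did not pass the threshold (0.15, standard error 0.13, adjusted p = 0.28 by edgeR). The core was also in 2 of 7 windows of the relatives described below (28.6%), Jdp2 among them, and 5 of the 8 relatives were lower.

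The IRE1 and ATF6 arms, which act beside PERK in the response to unfolded protein, were represented by 20 genes. With EMO, 17 were higher, 2 lower and 1 not past the threshold, beside 39.4% higher and 41.4% lower among all genes tested. The call of Hsp90b1, among the 17, was kept in 1 of 12 alternative fits. A 2-fold change was exceeded by 6 of the higher and 1 of the lower, beside 19.5% and 27.8% of all genes. The median log2 fold change was 0.54. Dnajb9, a cochaperone induced through the IRE1 arm, rose from 513 ± 20.9 to 5893 ± 648 normalised counts (log2 fold change 3.52, standard error 0.09). Hspa5, the chaperone BiP that holds the sensors inactive, rose from 17452 ± 702 to 122536 ± 2789 (2.81, standard error 0.05), and Atf6 from 1419 ± 37.0 to 9237 ± 1206 (2.70, standard error 0.09). The adjusted p by edgeR was 5.4e-11, 8.9e-12 and 5.0e-10 in turn. Pdia4, a protein disulfide isomerase, fell by 1.08 (standard error 0.06), and Mbtps1, a protease that releases ATF6, fell by 0.86 (standard error 0.06). Mbtps2, the other such protease, was at 0.02 (standard error 0.09, adjusted p = 0.82). The highest of these arms, Dnajb9, was below 7 of the 10 PERK-ATF4 genes in log2 fold change.

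Of the genes tied to CHOP in cell death and oxidative folding, 4 of 6 listed were tested. With EMO, 2 were higher, 1 lower and 1 not past the threshold, beside 39.4% higher and 41.4% lower among all genes tested. With 4 genes, no inference is drawn from this split. Pmaip1, encoding the death-promoting protein NOXA, rose from 909 ± 20.6 to 5328 ± 310 normalised counts (log2 fold change 2.55 ± 0.07 (SE), edgeR adjusted p = 6.3e-11). Bcl2l11, encoding BIM of the same protein class, fell from 869 ± 44.8 to 182 ± 9.52 (log2 fold change -2.25 ± 0.09 (SE), adjusted p = 1.5e-09). Of the oxidases of the endoplasmic reticulum, Ero1b rose by 0.71 (standard error 0.10, adjusted p = 4.6e-05), whereas Ero1a was at -0.09 (standard error 0.08, adjusted p = 0.30).

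Of the 8 closest relatives of the members, 5 were lower, 2 higher and 1 not past the threshold, beside 41.4% lower and 39.4% higher among all genes tested. They had a median log2 fold change of -1.30 beside 4.69 for the members. Trib2 passed the filter only through the TNF-α libraries, and the member Gdf15 only through the TNF-α+EMO libraries, which fixed their directions. The part of Trib2 and Gdf15 in these counts and medians is therefore no support. Atf5 and Jdp2 also stand among the ATF4 targets above, and Ppp1r15b in the eIF2 machinery. Trib1 fell from 793 ± 69.6 to 57.4 ± 2.39 normalised counts (log2 fold change -3.79 ± 0.11 (SE), edgeR adjusted p = 1.5e-10), and Trib2 from 343 ± 11.1 to 8.88 ± 2.37 (-5.25, standard error 0.20, adjusted p = 9.7e-10), while Trib3 rose. Among the sestrins, Sesn1 fell from 353 ± 48.5 to 136 ± 29.0 (-1.38, standard error 0.17, adjusted p = 1.7e-05) and Sesn3 from 711 ± 46.1 to 89.1 ± 5.51 (-2.99, standard error 0.10, adjusted p = 5.0e-10), while Sesn2 rose. Chac2, which acts on glutathione as Chac1 does, fell from 244 ± 31.1 to 105 ± 20.0 (-1.22, standard error 0.17, adjusted p = 6.3e-05). Ppp1r15b, the constitutive counterpart of Ppp1r15a, rose from 1229 ± 37.8 to 2980 ± 256 (1.28, standard error 0.07, adjusted p = 3.1e-08). Atf5, the nearest relative of Atf4, was at 0.19 (standard error 0.07, adjusted p = 0.034), a call that was kept under 4 of 12 alternative settings.

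**Figure D5:**
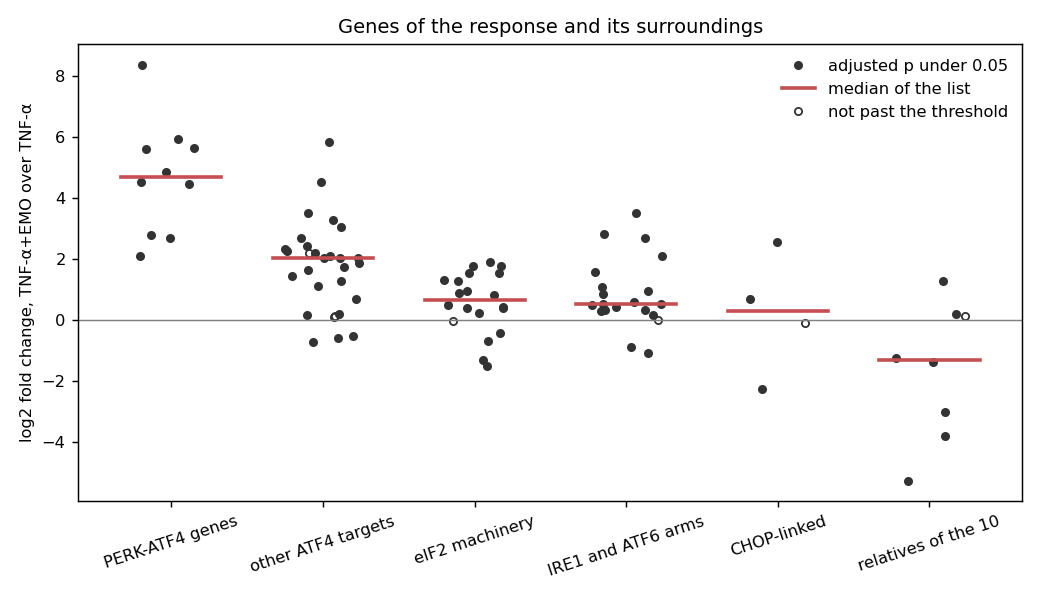
Log2 fold change (TNF-α+EMO over TNF-α) of each tested gene of the 10 PERK-ATF4 genes and of 5 lists around them, filled where the adjusted p was under 0.05 and open otherwise, with the median of each list as a bar. The 10 genes lie from 2.09 to 8.37 with a median of 4.69, other ATF4 targets have a median of 2.03, and the relatives have a median of -1.30.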

How the data were processed

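Poly(A)-selected paired-end libraries of rat RA-FLS were sequenced by the authors' provider. The submitters' processing notes name FastQC, Trimmomatic, HISAT2 and the build Rnor_6.0, and the counting program, annotation version and strand setting are not given in the sources used here. The authors deposited raw counts per gene, which were used as they stand. FPKM values and the authors' own comparison columns (group means, log2 fold change, p-value, adjusted p-value) were not used.

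A gene was tested when 3 or more libraries had 10 counts or more. Counts were scaled by TMM and tested with edgeR 4.0.16 in R 4.3.3 (robust quasi-likelihood F test, Benjamini-Hochberg over all genes tested), and the common biological coefficient of variation was 0.121. The standard error is the log2 fold change divided by the square root of F. The test was checked on simulated data in which, unlike here, few genes changed, so that check does not cover wide change. Normalised counts are scaled to the mean effective library of 17180218 counts, and levels between genes are per kilobase of the deposited gene length and per 1000000 counts. At this depth, ratios for genes with 3 or fewer counts are given with exact intervals at 95% confidence, which cover counting error only, as reads are not independent molecules.

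The members and lists were chosen with earlier results of these data known. Genes named are the members, the kinases of eIF2, the relatives, and the 3 highest and 3 lowest of each other list by log2 fold change; any further gene was named after its values were seen. Cth, Tnfrsf10b, Bbc3, Col1a2 and Pecam1 were not analysed here, and Slc7a3 and Cbs were under the filter. Alternatives were other scalings, filters and thresholds, DESeq2 1.42.0, the replicate number as a block and leaving out each library.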

Additional observations from a re-analysis of the deposited data

How the results depend on the processing

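Each of the 10 genes remained higher with EMO at an adjusted p under 0.05 in all 12 alternative fits and at both stricter thresholds, and the highest adjusted p, 1.6e-07, was that of Eif2ak3. The median log2 fold change of the 10 ranged from 4.57 to 4.75. Gdf15 passed the filter on low counts only through the TNF-α+EMO libraries, so its part in these results is no support. With library totals as the only scaling, the median over all genes moved from -0.01 to -0.12, the share of higher genes among all calls from 48.7% to 44.8%, and the lower CHOP-linked genes from 1 to 2. The number of relatives that were higher went from 2 to 1 with library totals, a minimum of 50 counts, DESeq2, the replicate block or an adjusted p under 0.01, and was between 1 and 3 when single libraries were left out. Atf5 was the relative that lost its call, including without TNF-α replicate 2, TNF-α replicate 3, TNF-α+EMO replicate 2 or TNF-α+EMO replicate 3. Without TNF-α+EMO replicate 1, Jdp2 and Phgdh passed the threshold and 25 ATF4 targets were higher in place of 23. Hsp90b1, 1 of the 17 higher genes of the IRE1 and ATF6 arms, kept its call in 1 of 12 alternative fits. Requiring an absolute log2 fold change over 1 lowered all calls from 11008 to 6442, eIF2 machinery genes to 7 higher and 2 lower, lower ATF4 targets to 0, genes of the IRE1 and ATF6 arms to 6 higher and 1 lower, and both higher CHOP-linked genes and higher relatives to 1, since that threshold keeps fewer genes by construction. Libraries with the same replicate number did not deviate together (r = 0.0193, -0.0068 and 0.0676), so the numbers were not taken as pairs. With the replicate number as a block, 10806 genes passed the test and all 10 members were higher. Depth limits the size of the Gdf15 and Fgf21 changes, which rest on 5 and 3 counts over the TNF-α libraries.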
